A study of Drosophila melanogaster with 3 samples.

Results

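Vrille binding sites that lay at the promoter of exactly 1 protein-coding gene made up 3295 of the reproducible peaks in whole white prepupae of Drosophila melanogaster, or 35.6% of them. The peaks came from chromatin immunoprecipitation and sequencing with an anti-GFP antibody in a transgenic line that stably expressed Vrille with GFP at its C terminus. There was 1 group of 3 biological replicates, each of males and females together, at the white prepupa stage, and their exact age was not given. All replicates carried the tagged protein, so no untagged or mutant group stood beside them. The labels did not say whether the insertion held a further copy of the vri promoter, which bears on the peak at vri itself. Whole animals were used, so binding in 1 tissue could not be told from binding in many.

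A peak was kept when its summit, the point of highest signal, lay within 1 kb of transcription start sites of 1 protein-coding gene and of no other. Another 1257 peaks lay within 1 kb of start sites of several protein-coding genes and are called shared promoter peaks, and 4712 peaks lay more than 1 kb from any protein-coding start site. The 3295 single-gene promoter peaks were thus 72.4% of the 4552 promoter peaks. They named 2107 of 13945 protein-coding genes, which is 15.1% of them, and shared promoter peaks named 2009 genes, or 14.4%. Both kinds were found at 286 genes. Of the single-gene promoter peaks, 333 (10.1%) also lay within 1 kb of the start of a non-coding gene, and 1298 had no start site of another coding gene within 5 kb.

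Vrille is a basic leucine zipper (bZIP) protein that represses transcription in the circadian clock, where it acts on Clk against the activator PDP1, which recognises the same DNA element. It is needed for development as well as for the clock. White prepupae stand at the start of metamorphosis, which a pulse of the steroid hormone ecdysone sets off. A promoter that serves 1 gene gives a peak 1 obvious neighbour, whereas a peak between divergently transcribed genes has several.

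The DNA under the highest peaks is shown first, because these summits carried the strongest binding of any single-gene promoter. Each sequence covers the summit and 50 bp on either side of it, from the dm6 assembly as held by RefSeq, written 5′ to 3′ in the direction of the gene. Capitals mark any match to 10 motifs that were searched on both strands, and peaks on 1 chromosome arm are not shown.
Pdp1, chr3L:7867544-7867644, strand -: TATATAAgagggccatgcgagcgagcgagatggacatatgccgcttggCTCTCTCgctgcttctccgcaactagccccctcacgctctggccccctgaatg
CG12054, chr3R:31220853-31220953, strand +: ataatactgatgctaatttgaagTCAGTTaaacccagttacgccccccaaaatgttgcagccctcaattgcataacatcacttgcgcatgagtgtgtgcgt
vri, chr2L:5305436-5305536, strand +: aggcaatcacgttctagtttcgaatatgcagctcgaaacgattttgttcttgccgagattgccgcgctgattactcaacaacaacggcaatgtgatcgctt
Mpcp2, chr3L:14537670-14537770, strand +: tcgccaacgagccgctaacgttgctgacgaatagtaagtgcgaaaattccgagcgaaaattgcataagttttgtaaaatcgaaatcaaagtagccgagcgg
larp, chr3R:28326546-28326646, strand -: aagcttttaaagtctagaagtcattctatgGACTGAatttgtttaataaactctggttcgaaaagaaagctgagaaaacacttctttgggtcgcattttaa
CG14100, chr3L:19590570-19590670, strand -: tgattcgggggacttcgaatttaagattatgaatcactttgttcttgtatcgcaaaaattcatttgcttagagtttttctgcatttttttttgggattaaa
Pdp1 held a TATA box match and a GAGAG match, and CG12054 and larp each held an initiator match. The windows of vri, Mpcp2 and CG14100 held none of the 10 motifs, and none of the 6 windows held the VP box, the element known for Vrille and PDP1. A match describes letters only.

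The second set shows the 6 highest single-gene promoter peaks that did hold the VP box (TTACGTAA or TTATGTAA) within 50 bp of the summit, again without that arm. Capitals mark the VP box alone, which reads TTACATAA where it lies on the other strand.
tara, chr3R:16242615-16242715, strand +: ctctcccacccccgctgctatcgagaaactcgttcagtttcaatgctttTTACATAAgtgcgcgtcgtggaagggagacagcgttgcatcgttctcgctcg
Glut4EF, chr3R:9928653-9928753, strand +: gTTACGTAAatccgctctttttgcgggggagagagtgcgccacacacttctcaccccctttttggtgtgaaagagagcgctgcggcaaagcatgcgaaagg
CG32369, chr3L:7804794-7804894, strand -: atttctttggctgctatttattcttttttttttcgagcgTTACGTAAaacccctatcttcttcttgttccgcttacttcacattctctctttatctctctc
sesB, chrX:10783739-10783839, strand -: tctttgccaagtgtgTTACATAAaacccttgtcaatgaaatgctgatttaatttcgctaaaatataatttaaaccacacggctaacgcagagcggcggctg
Raf, chrX:2295532-2295632, strand +: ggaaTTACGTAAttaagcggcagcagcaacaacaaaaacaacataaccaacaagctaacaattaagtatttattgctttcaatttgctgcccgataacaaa
ScsbetaA, chr3R:8938911-8939011, strand +: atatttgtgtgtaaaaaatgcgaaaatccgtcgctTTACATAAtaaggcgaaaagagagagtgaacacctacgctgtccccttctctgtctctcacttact
tara encodes a regulator of the cell cycle and of sleep. sesB encodes the mitochondrial ADP/ATP exchanger, Raf a kinase downstream of receptor tyrosine kinases, and ScsbetaA a subunit of the succinyl-CoA synthetase of the citric acid cycle. TTACATAA was the form at 45 of the 61 members with the element, and the palindrome TTACGTAA at 16.

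Signal was compared between replicates as relative signal, each peak's deposited signal value divided by the median of that replicate over all reproducible peaks, so that 1 is the middle peak. The highest single-gene promoter peak, and the highest peak of the whole list, was at Pdp1, with relative signals of 20.7, 22.5 and 18.9 in the 3 replicates (20.7 ± 1.83, SD, n = 3). It lay at chr3L:7867014-7867965, outside the gene, and its summit stood 225 bp upstream of the nearest start. Pdp1 encodes PAR domain protein 1, the clock activator that competes with Vrille. All 3 of its values lay above every replicate value of the other members.

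At vri, chr2L:5304896-5306255, the summit lay 164 bp upstream of one of its 3 start sites, in an intron of the longer transcripts, with relative signals of 15.5, 14.6 and 15.1 (15.1 ± 0.456, SD, n = 3). Its replicates lay closest together among the 15 highest peaks. A second summit in the same interval lay 42 bp downstream of a start, in the 5′ UTR, at 5.65 ± 0.889 (SD, n = 3). Between these clock genes stood CG12054, chr3R:31220415-31221714, with 14.4, 17.8 and 13.7 (15.3 ± 2.24, SD, n = 3) at 201 bp downstream of a start. The ranges of CG12054 and vri overlapped, so their order was not settled by the replicates.

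The next members at the top included genes of the mitochondrial inner membrane and of translation. Mpcp2, a mitochondrial phosphate carrier, had 13.97, 14.05 and 11.997 at 6 bp upstream of a start (13.3 ± 1.16, SD, n = 3). larp, an RNA-binding protein of translation, had 13.3, 12.4 and 13.6, and CG14100 had 14.1, 10.7 and 13.4. These 3 genes overlapped in their replicate values. sea, the mitochondrial citrate carrier, had 10.8, 13.7 and 10.2, and Lk6, a kinase of the translation initiation factor eIF4E, had 11.9, 9.30 and 12.5 at 969 bp upstream of its nearest start. nes, a lysophospholipid acyltransferase, had 10.7, 13.5 and 9.42, and Fmo-2, a flavin-containing monooxygenase, had 12.4, 11.1 and 9.07. COX7AL2, which resembles a cytochrome c oxidase subunit, had 11.97, 10.5 and 9.30 at 756 bp upstream of a start. ttk, a zinc finger repressor, had 9.74, 11.4 and 9.44. CG9331 averaged 11.8 ± 1.53, CG1888 11.3 ± 1.81 and CG18549 9.99 ± 1.41 (SD, n = 3 each), and these genes are known only by a CG number.

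**Figure D1:**
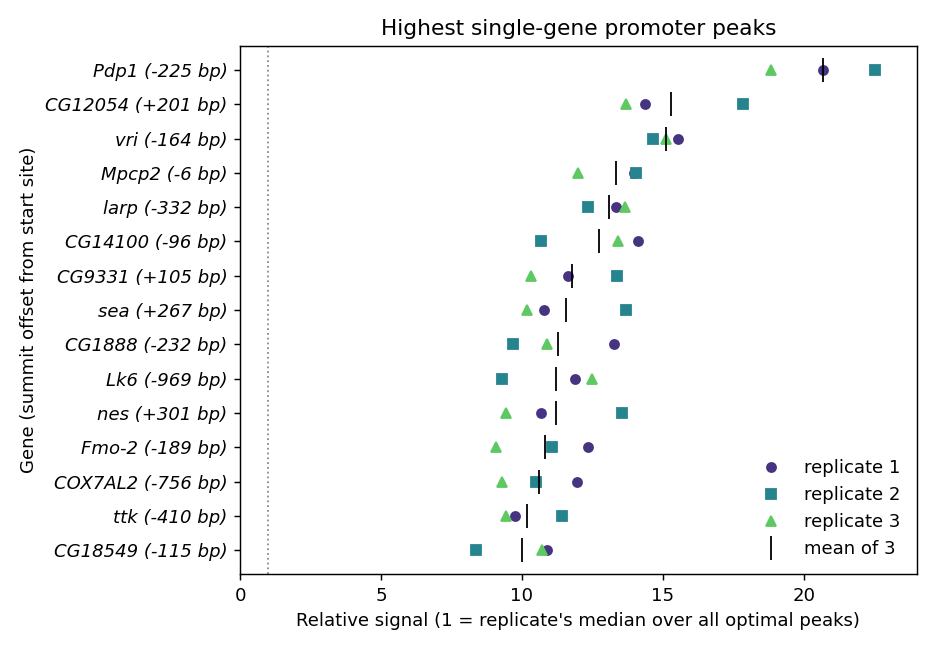
Relative signal (x axis; 1 is the replicate's median over all reproducible peaks) of the 15 highest single-gene promoter peaks, 1 row per gene with the summit's offset from the start site, with 1 symbol per replicate and a bar at the mean. Pdp1 stands alone between 18.9 and 22.5, and from Mpcp2 downwards the replicates of neighbouring rows overlap.

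The steep top fell away quickly. Of the 3295 members, 14 exceeded a mean relative signal of 10, 77 exceeded 5 and 1692 (51.4%) exceeded 1, and the lowest stood at 0.308. The 10th percentile was 0.612 and the 90th percentile 2.70. Among the 100 highest peaks of the list, 49 were single-gene promoter peaks, 21 were shared and 30 lay beyond 1 kb. The replicates ranked the members alike in part, with Spearman correlations across members of 0.727, 0.734 and 0.633 for the 3 pairs of replicates, which describe peaks and not independent samples.

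Most members were among the strong entries of each replicate's own list. On average 88.6% ± 1.61 of the single-gene promoter peaks overlapped an entry of high signal in a replicate, taking as many of its highest entries as there are reproducible peaks (SD, n = 3), against 90.5% ± 3.28 of shared promoter peaks and 85.2% ± 3.99 of peaks beyond 1 kb. In all 3 replicates together, this held for 2418 single-gene promoter peaks (73.4%), 964 shared promoter peaks (76.7%) and 3149 peaks beyond 1 kb (66.8%). The optimal list was made from these replicate lists, so a high share is partly fixed by its making.

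The typical single-gene promoter peak was weaker than the typical shared promoter peak and stronger than the typical peak away from promoters. Its median relative signal was 1.04, 1.06 and 1.02 in the 3 replicates (1.04 ± 0.0204, SD, n = 3). For shared promoter peaks it was 1.15, 1.16 and 1.13 (1.15 ± 0.0132), and for peaks beyond 1 kb 0.942, 0.928 and 0.957 (0.942 ± 0.0145). The difference of single-gene promoter peaks from shared ones was −0.105 ± 0.00846, lower in 3 of 3 replicates, and that from peaks beyond 1 kb was 0.101 ± 0.0349, higher in 3 of 3. Each difference gave p = 0.25 in a two-sided exact sign-flip permutation test, the smallest p that 3 replicates allow, so no difference between kinds of peak could pass 0.05 here. Among the stronger 50% of the peaks the first difference turned round, and single-gene promoter peaks were higher than shared ones by 0.0534 ± 0.0273. Among the peaks that passed in the remaining replicates, the difference from shared ones was −0.0584 without replicate 2 and −0.0681 without replicate 3, and that from peaks beyond 1 kb was 0.0580 without replicate 1. With only the 5′-most start site of each gene, the difference from peaks beyond 1 kb was 0.0449 ± 0.0227.

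**Figure D2:**
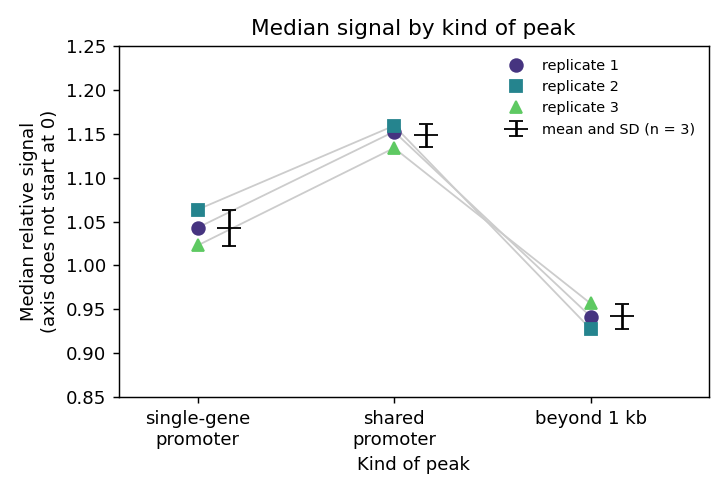
Median relative signal (y axis, which does not start at 0) of single-gene promoter peaks, shared promoter peaks and peaks beyond 1 kb, with 1 symbol per replicate joined by lines and the mean with its SD beside it. In each replicate the single-gene promoters, at 1.02 to 1.06, lie below the shared promoters, at 1.13 to 1.16, and above the distant peaks, at 0.928 to 0.957.

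With the limit of 1 kb, single-gene promoter peaks lay farther from the start site than shared ones and more often upstream. The replicates' own summits had a median distance of 227 ± 4.16 bp from the nearest start site (SD, n = 3), against 89.7 ± 3.06 bp at shared promoters, farther in 3 of 3 replicates. Within 100 bp lay 30.1% ± 0.484 of single-gene summits and 54.9% ± 1.05 of shared summits. Upstream lay 58.8% ± 0.827 of single-gene summits and 53.0% ± 2.73 of shared summits. The exact sign-flip permutation test gave p = 0.25 for the share upstream. This share is read from the offset whose size the rule used, and at shared promoters from the nearest of several genes. The test therefore cannot separate the difference from the rule, and no conclusion is drawn from it. Distance is what the rule used, and a shared promoter peak must lie near start sites of several genes, so the distances and the share within 100 bp are given without a test. The median distance of single-gene summits was 130 bp with a limit of 500 bp and 458.5 bp with a limit of 2 kb. With a limit of 500 bp in place of 1 kb, 61.4% of single-gene summits lay upstream, and the difference from shared ones was −0.718 percentage points.

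On the optimal summits the offsets of single-gene promoter peaks had a median of −48 bp and quartiles of −252 and 150.5 bp. Signal was not even along this stretch. The 575 members from 249 to 100 bp upstream had a median relative signal of 1.201, 1.10 and 1.23 in the 3 replicates (1.18 ± 0.0658, SD, n = 3). The 559 members from 99 bp upstream to the start itself had 0.977, 0.990 and 0.919 (0.962 ± 0.0380), below the stretch upstream of it in every replicate. Members 251 to 500 bp downstream were again higher, at 1.16 ± 0.0943, though only 184 lay there. The 15 highest members lay at many positions and not only in the stretch from 249 to 100 bp upstream. Pdp1, vri and CG1888 lay inside it, Mpcp2 at the start, CG12054 201 bp downstream and Lk6 969 bp upstream.

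**Figure D3:**
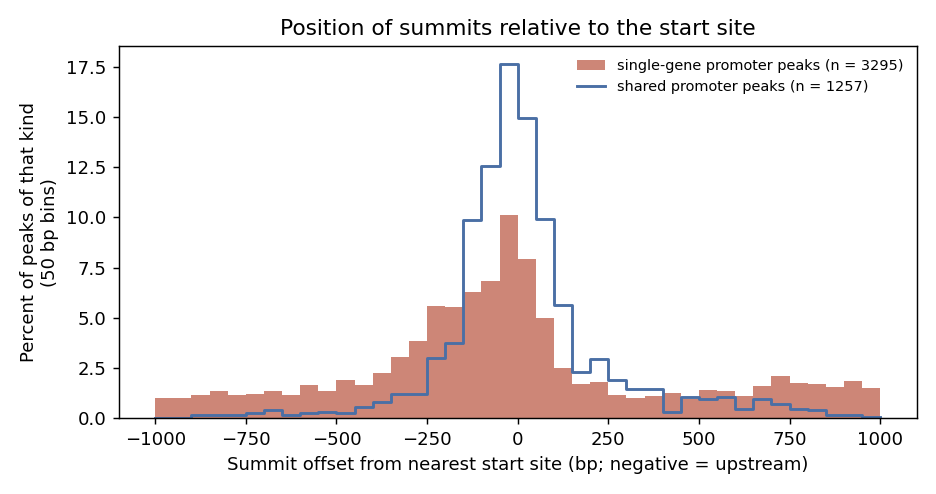
Percent of peaks of each kind (y axis) by offset of the summit from the nearest start site in 50 bp bins (x axis; negative is upstream), with filled bars for the 3295 single-gene promoter peaks and a line for the 1257 shared promoter peaks. The single-gene summits spread over the whole kilobase on both sides, with a shoulder upstream, while 55.1% of the shared summits lie within 100 bp of the start.

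By annotation of the gene that chose them, 1384 members (42.0%) had their summit in an intron, 1103 (33.5%) outside the gene, 741 (22.5%) in a 5′ UTR, 55 in a coding exon and 12 in a 3′ UTR. Intronic members had a median relative signal of 1.11 ± 0.00560, against 1.00 ± 0.0220 for members outside the gene and 1.01 ± 0.0789 for those in a 5′ UTR (SD, n = 3 each). The intronic median was above the one outside the gene in each replicate. vri, larp and br are examples, each with its summit upstream of one start and in an intron of a transcript that begins farther out.

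Genes with a single-gene promoter peak were long and often had several start sites. Their median length was 5896 bp, against 2731 bp for genes with a shared promoter peak and 2166 bp for all protein-coding genes. The rule leaves out summits near start sites of other genes, and how far the difference in length follows from this was not tested. Several start sites were annotated for 55.5% of them, against 42.7% of the genes with a shared promoter peak and 26.5% of all genes. The share of genes with a single-gene promoter peak was 9.15% with 1 start site, 22.99% with 2, 42.7% with 3 and 64.5% with 4 or more. A gene with more start sites covers more sequence within 1 kb, so this share partly follows from the rule. The share with a shared promoter peak was 11.2%, 21.8%, 26.7% and 25.9% over the same classes. The median relative signal of the gene's highest peak was 1.03 ± 0.0353 with 1 start site, 1.26 ± 0.0473 with 2, 1.27 ± 0.0285 with 3 and 1.59 ± 0.0302 with 4 or more (SD, n = 3). A gene with more peaks has more values from which the highest is taken, so this rise also partly follows from the reading. Over all peaks, the median was 0.972 ± 0.0219 in genes with 1 start site and 1.08 ± 0.0274 in genes with several (SD, n = 3).

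In the 1170 genes with several start sites, 706 peaks lay nearest to the outermost start and 1476 (67.6%) nearest to a further one. Of all start sites of these genes 66.5% were further ones, so the peaks were divided about as the start sites were. The median relative signals were 1.09 ± 0.0304 at further starts and 1.06 ± 0.0208 at outermost ones (SD, n = 3 each). Of the peaks at further starts 73.2% were intronic, against 18.6% of those at outermost starts. At 260 of the genes peaks were found at both.

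Most genes had 1 such peak, 1372 in all, while 490 had 2 and 143 had 3. Svil, which encodes the actin-binding protein supervillin, had the most with 11 peaks over 16 start sites, between 0.483 and 2.90 in mean relative signal. Rtnl1, a reticulon of the endoplasmic reticulum, had 10 peaks, up to 4.69. SNF4Agamma, a subunit of the AMP-activated kinase, and ps, the RNA-binding protein pasilla, had 9 each. Eip75B, an ecdysone-induced nuclear receptor, Moe, the membrane linker moesin, and shn, a transcription factor of Dpp signalling, had 8 each. Some summits share an interval, and the 3295 members lay in 3185 intervals. The chromosome arms differed little, with a peak at 14.5% to 15.5% of the genes of 2L, 2R, 3L, 3R and X and at 9 of 80 genes of chromosome 4.

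The genes fell unevenly over 33 gene lists, which are described below by counts beside the background of 15.1% for single-gene and 14.4% for shared promoter peaks. No test was made on a list, since lists and peaks were chosen with results known, and genes with a peak were longer than the rest. Such genes also had several start sites more often. How far length and start sites bear on the share of each list was not tested.

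Among 20 circadian clock genes, 9 (45.0%) had a single-gene promoter peak and 1, slmb, had a shared one only. The 20 genes had a mean of 2.65 start sites, against 1.41 for all genes, and a median length of 10713 bp, against 2166 bp. Below Pdp1 and vri stood sgg, the Shaggy kinase of the clock and of Wingless signalling, with 3.07, 3.42 and 3.499, and kay, the fly Fos, with 2.74, 2.45 and 1.94. The remaining 5 were tws, a phosphatase subunit, at 1.77 ± 0.119, cwo, a repressor of the clock, at 1.38 ± 0.525, cry, the blue light receptor, at 0.661 ± 0.401, Clk, the activator that Vrille represses, at 0.627 ± 0.140, and CkIIbeta at 0.599 ± 0.319 (SD, n = 3 each). These 5 were named after their values were seen. The peak at Clk, 56 bp upstream of its start, was thus below the middle peak in all 3 replicates, at 0.612, 0.774 and 0.494. The core repressors per and tim and the activator cyc were among the 10 clock genes with no promoter peak of either kind.

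Of 19 bZIP genes, the family of Vrille itself, 12 (63.2%) had a single-gene promoter peak and only Irbp18 had a shared one. The 19 genes had a mean of 2.47 start sites, against 1.41 for all genes, and a median length of 8662 bp, against 2166 bp. REPTOR, a factor of the response to TOR inhibition, followed Pdp1 and vri with 5.61, 4.08 and 6.76 (5.48 ± 1.35), and CrebB, the fly CREB, had 3.93, 5.29 and 4.00 (4.41 ± 0.762). Atf3, CrebA, Jra, Xbp1, cnc, crc, kay and slbo made up the rest and are named after their values were seen, and the whole list ran down to 0.623.

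Of 32 genes of the ecdysone response, 19 (59.4%) had a single-gene promoter peak, 3 had a shared one only and 10 had neither. br, the early gene broad, had 7.96, 8.82 and 6.56 (7.78 ± 1.14, SD, n = 3), highest in the list. Eip75B had 4.55, 4.19 and 4.94, and ftz-f1, the competence factor of the prepupa, had 3.63, 4.07 and 2.62. ETHR, the receptor of the ecdysis-triggering hormone, had 2.80, 3.12 and 3.05. EcR, the hormone receptor itself, had 2.14, 2.11 and 1.88. The list spanned 0.614 to 7.78, and 14 of the 19 exceeded 1. Its genes are long, with a median of 19361 bp, and had a mean of 2.47 start sites, against 1.41 for all genes.

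Of 18 nuclear receptors, 7 (38.9%) had a single-gene promoter peak, led by Eip75B and ftz-f1, and Hnf4, a regulator of lipid and glucose use, had 3.16, 3.496 and 2.20. All 7 exceeded a mean relative signal of 1. The 18 genes had a mean of 2.44 start sites, against 1.41 for all genes, and a median length of 22406 bp. None of the 8 Hox genes had a promoter peak of either kind, and their median length was 30563 bp.

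Signalling lists stood above the 15.1% of all genes. Their genes were also long, with median lengths from 6978 bp (Notch) to 16995 bp (Hippo), against 2166 bp for all genes. Their mean number of start sites ran from 1.47 (Notch) to 2.47 (Wingless), against 1.41 for all genes. The Dpp pathway had 9 of 20 genes (45.0%), led by shn with 6.87, 7.03 and 4.68 and by the receptor tkv at 2.64 ± 0.359. The EGF receptor and Ras list had 9 of 20 (45.0%), led by Raf with 3.95, 4.75 and 3.21, the ligand spi at 2.41 ± 0.677 and the repressor cic at 2.14 ± 0.434. The Wingless list had 7 of 17 (41.2%), led by the co-receptor arr with 7.99, 8.99 and 7.197. Only 3 of these 7 exceeded a mean relative signal of 1, and their median was 0.928. The Hippo list had 6 of 15 (40%), led by the cadherin ds at 4.34 ± 0.531 and by ex, which acts upstream of the kinases, at 2.90 ± 0.652, and as many with a shared one. The Notch list had 4 of 17 (23.5%), which were fng, numb, neur and mam, and the Polycomb and trithorax list 6 of 22 (27.3%), led by ph-p at 7.04 ± 1.68 (SD, n = 3 each).

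Growth and carbohydrate metabolism gave like counts. Insulin and TOR signalling had 10 of 20 genes (50%), led by the kinase Pdk1 with 4.33, 6.15 and 3.71, and Thor, the inhibitor of eIF4E, stood at 1.85 ± 0.222. Glycolysis had 8 of 13 (61.5%), led by Gapdh2 with 8.33, 6.76 and 9.47. Ldh, lactate dehydrogenase, followed at 2.91 ± 0.839, Hex-A, hexokinase, at 2.80 ± 0.476 and Pgk at 2.25 ± 0.637. The glycolytic genes had a mean of 2.62 start sites, against 1.41 for all genes, and a median length of 3590 bp, against 2166 bp. Lipid storage and synthesis had 10 of 19 (52.6%), led by Lpin, the phosphatidate phosphatase lipin, with 4.77, 4.57 and 6.13, and 9 with a shared promoter peak. The mean number of start sites was 2.26 in the lipid list and 1.90 in the insulin and TOR list. Their median lengths were 7586 bp and 8143 bp.

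Cell death genes had 7 of 18 (38.9%), with the inhibitor Diap1 highest at 4.26 ± 0.997, then the killers hid at 2.70 ± 0.453 and rpr at 0.870 ± 0.306. Only 2 of these 7 exceeded a mean relative signal of 1, and their median was 0.869. Of 19 heat shock genes, 7 (36.8%) had one, led by Hsp27 with 7.86, 4.09 and 10.2, and Hsp60A at 4.41 ± 0.868. Detoxification families stood at 10 of 35 glutathione transferases (28.6%), 9 of 35 UDP-glycosyltransferases (25.7%) and 19 of 83 cytochrome P450 genes (22.9%). A mean relative signal of 1 was exceeded by 6 of the 10, 5 of the 9 and 8 of the 19. In the replicates' own lists the share of UDP-glycosyltransferases was 28.6%, 22.9% and 14.3%, the last below the background. GstE13 had 5.96 ± 1.12, GstT4 3.74 ± 0.0915 and Cyp310a1 2.01 ± 0.308. Copies of such families that start close together are counted by the rule under shared promoter peaks.

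Several lists of general cell functions had more genes with a shared than with a single-gene promoter peak, while the vacuolar ATPase had 5 of 33 (15.2%) for each kind and glycolysis, above, went the other way. Whether a peak counts as shared depends on how near other coding genes start, and a shared peak names several genes. How closely the genes of each list lie to other genes was not tested. Cytoplasmic ribosomal protein genes had 20 of 93 (21.5%) with a single-gene and 37 (39.8%) with a shared promoter peak, mitochondrial ribosomal protein genes 2 of 73 (2.74%) and 34 (46.6%), and autophagy genes 2 of 20 (10%) and 9 (45.0%). Oxidative phosphorylation had 19 of 93 (20.4%) and 40 (43.0%), with the ATP synthase subunits ATPsynC at 7.82 ± 2.26 and blw at 3.37 ± 0.728 among its highest single-gene members. The proteasome had 2 of 48 (4.17%) and 6 (12.5%), and aminoacyl-tRNA synthetases had 0 of 33 and 5 (15.2%). Rab GTPases had 6 of 33 (18.2%) and 9 (27.3%), and translation initiation factors 4 of 44 (9.09%) and 8 (18.2%). In the replicates' own lists the cytoplasmic ribosomal shares were 21.1% ± 2.48 and 45.5% ± 5.30 (SD, n = 3), and those of oxidative phosphorylation 19.7% ± 1.24 and 41.6% ± 1.64. For the synthetases those lists held single-gene peaks at 6.06%, 9.09% and 0% of the genes. The ribosomal and oxidative phosphorylation genes are short, with medians of 1318 bp for cytoplasmic ribosomal proteins and 1100 bp for oxidative phosphorylation.

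Families known for 1 stage or tissue differed widely. Cpr cuticle proteins had 6 of 70 (8.57%), and chemosensory receptors and odorant-binding proteins 3 of 230 (1.30%). None of the 10 salivary glue genes had a single-gene promoter peak, and Sgs1 and Sgs5 had a shared one. Of 6 larval serum protein genes, Lsp1gamma, Lsp1beta and Fbp2 had one, at 1.07 ± 0.236, 0.632 ± 0.111 and 0.743 ± 0.123. Genes still known only by a CG number had 642 of 6097 (10.5%), below the 15.1% of all genes.

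**Figure D4:**
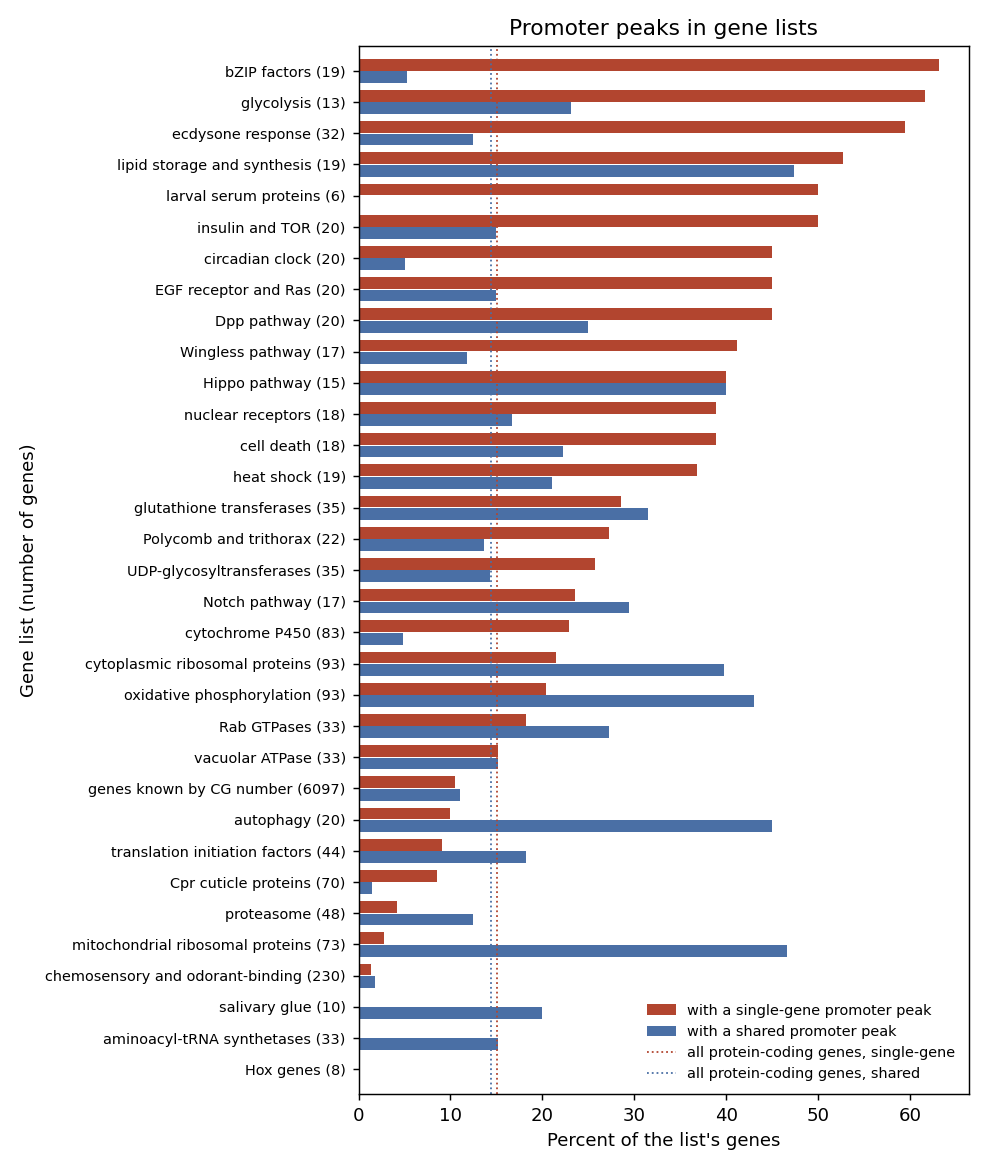
Percent of the genes of each list (x axis) with a single-gene promoter peak, upper bars, and with a shared promoter peak, lower bars, for 33 lists sorted by the first value, with dotted lines at 15.1% and 14.4% for all protein-coding genes. bZIP factors, glycolysis and the ecdysone response stand at 59.4% to 63.2% for single-gene promoter peaks, while mitochondrial ribosomal proteins and autophagy stand at 45.0% and above for shared ones and at 10% and below for single-gene ones.

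The sequence around the summits differed between the kinds of promoter, with more initiator and GAGAG matches at single-gene promoters. The VP box lay within 50 bp of 61 of the 3295 optimal summits of single-gene promoters (1.85%, exact binomial 95% interval 1.42% to 2.37%), against 33 of 1257 at shared promoters (2.63%, 1.81% to 3.67%). These intervals overlapped, so a lower share at single-gene promoters was not settled by the counts. At the replicates' own summits it was present in 1.70%, 2.22% and 1.62% of single-gene windows (1.85% ± 0.328, SD, n = 3). These summits lay in the same peaks, so largely the same DNA was read in the 3 replicates. For every motif, the SD, the p and the agreement of replicates therefore cover shifts of the summit and not independent sequence. In windows 400 bp to either side of the same summits it was present in 0.939% ± 0.00710, lower than at the summit in 3 of 3 replicates (two-sided exact sign-flip permutation test, p = 0.25). Shared promoter summits held it in 2.62% ± 0.15 and summits beyond 1 kb in 2.33% ± 0.0362, above the single-gene promoters in 3 of 3 replicates each (exact permutation test, p = 0.25 each). Of 19607 protein-coding start sites, 0.474% held it in a window of the same length. The element was thus found at few of the members, its median distance from the summit was 22.5 bp, and it lay within 25 bp at 37 of 61. Members with it had a median relative signal of 1.37 ± 0.169 and members without it 1.04 ± 0.0186 (SD, n = 3), higher in 3 of 3 replicates.

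The initiator, read as TCAGTC or TCAGTT, was present at 14.03% ± 0.0787 of single-gene summits, against 8.50% ± 0.904 of shared summits and 10.4% ± 0.0939 of summits beyond 1 kb. GAGAG, the core of the GAGA factor element, was present at 20.7% ± 0.428, against 13.9% ± 0.524 at shared summits and 15.3% ± 0.457 beyond 1 kb. Both were higher at single-gene than at shared promoters in 3 of 3 replicates. The DNA replication-related element TATCGATA, bound by DREF at promoters of growth genes, went the other way, with 0.939% ± 0.0532 of single-gene summits, 3.19% ± 0.217 of shared summits and 0.0781% ± 0.0323 of summits beyond 1 kb (SD, n = 3 each). Since single-gene summits lay farther from the start, the same was read for summits within 100 bp of one. There the initiator was present at 23.3% ± 0.433 against 10.4% ± 0.860 at shared promoters, GAGAG at 22.5% ± 0.306 against 12.7% ± 0.435, and the element of DREF at 2.34% ± 0.171 against 5.02% ± 0.350. The VP box was there at 0.402%, 0.912% and 0.722% of single-gene summits (0.679% ± 0.258) against 1.53% ± 0.394 of shared ones. Each of these differences between single-gene and shared promoters had 1 direction in 3 of 3 replicates, which read largely the same DNA. For the VP box, the flanks of all single-gene summits stood at 0.939% and all protein-coding start sites at 0.474%. Flanks of the summits within 100 bp of a start were not read separately, so an excess over flanks there was not tested. Of all start sites, 22.5% held the initiator, 12.7% GAGAG and 4.47% the element of DREF.

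Of the other motifs, the C/EBP site (TTACGTAA, TTACGCAA, TTGCGTAA or TTGCGCAA, of which the first is also a VP box) was present at 1.27% ± 0.148 of single-gene summits and 0.526% ± 0.0931 of their flanks. The E box CACGTG, bound by the clock activators, was present at 1.41% ± 0.167 of summits and 1.37% ± 0.0997 of flanks. The TATA box, read as TATAAAA or TATATAA, was present at 8.03% ± 1.08 and 8.02% ± 0.414. For the E box and the TATA box the summits stood within the replicate spread of their own flanks. CAGCTG was present at 6.17% ± 0.0688 of single-gene and 8.64% ± 0.777 of shared summits, TGACGTCA at 0.408% ± 0.0374 and 0.675% ± 0.0518, and CAGGTAG at 0.429% ± 0.0334 and 0.2703% ± 0.0488 (SD, n = 3 each). CAGGTAG was more frequent in the flanks of single-gene summits, at 0.597% ± 0.0742, and lay at only 18 single-gene and 3 shared optimal summits. At single-gene summits CAGCTG and TGACGTCA were above their flanks in 3 of 3 replicates, and CAGGTAG in 0 of 3.

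**Figure D5:**
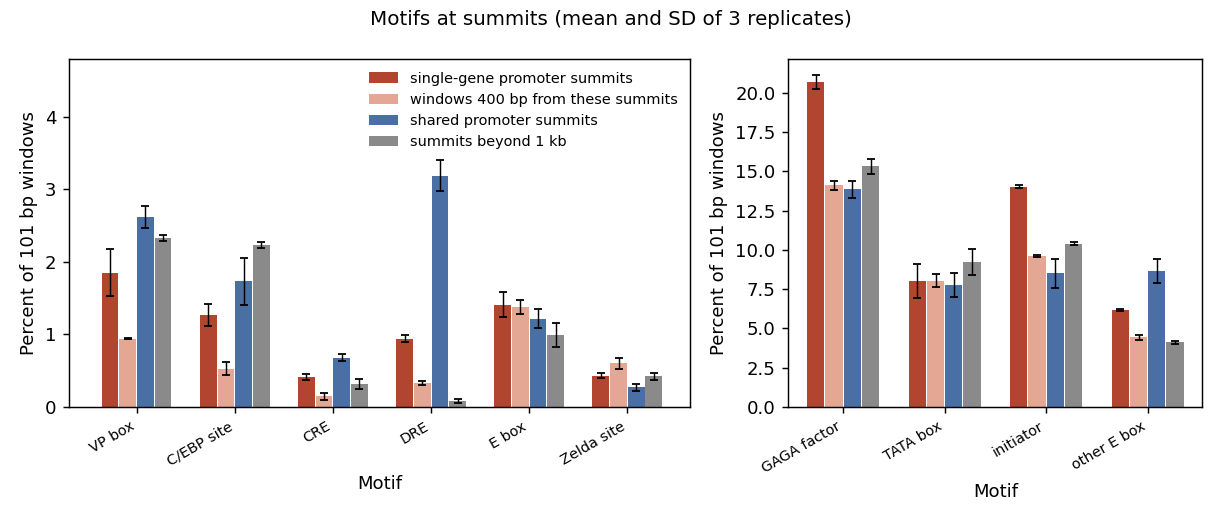
Percent of windows of 50 bp to either side with each of 10 motifs (y axis, with different scales in the panels) at single-gene promoter summits, in windows 400 bp from these summits, at shared promoter summits and at summits beyond 1 kb, with bars for the mean and error bars for the SD of 3 replicates. GAGAG and the initiator are higher at single-gene than at shared promoters, and the element of DREF is lower, at 0.939% against 3.19%. The replicates read the same peaks, so the SD covers shifts of the summit only.

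At the 1 kb limit of the rule, values on both sides are given as a description. The 82 members with a summit 951 to 1000 bp from the start had a median relative signal of 1.07, 1.11 and 1.16 in the 3 replicates. The 86 peaks 1001 to 1050 bp from a start had 0.855, 0.922 and 0.847. Exactly 1000 bp away stood sau, which encodes a Golgi protein, at 1.21 ± 0.362, RhoGAP19D at 1.52 ± 0.137 and Picot at 0.867 ± 0.171. Exactly 1001 bp away stood crp at 1.14 ± 0.238, mtgo at 1.30 ± 0.282 and CG1640 at 0.960 ± 0.306 (SD, n = 3 each). Where the limit separates single-gene from shared promoters, the 86 members whose second gene starts 1001 to 1100 bp away had 0.870, 0.919 and 0.862, and the 105 shared peaks with it 901 to 1000 bp away had 1.08, 1.14 and 1.07.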

How the data were processed

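Binding of GFP-tagged Vrille was mapped in 3 biological replicates of whole white prepupae, 1 group. The deposited lists are in narrowPeak format in dm6. Per the note files, the authors made each replicate list of 30000 entries from that replicate's alignments and 1 further file, and the optimal list of 9264 peaks from the replicate and pooled lists by the irreproducible discovery rate. Neither the peak caller nor its threshold is stated in the labels or note files. The deposited signal value is not scaled between libraries, and read depth per library is unknown. It was therefore divided by each replicate's median over all optimal peaks. The deposited summit offset, added to the start of its interval, gave each summit, and coordinates are 1-based.

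Start sites came from Ensembl release 115 (BDGP6) for 13945 protein-coding genes with 19607 start sites on 6 chromosome arms, and bases from RefSeq. For each peak the overlapping replicate entry (at least 1 bp) with the nearest summit was taken. Motifs were searched on both strands in 101 bp around summits and in windows 400 bp to each side. Differences between kinds of peak were tested over the 3 replicates with a two-sided exact sign-flip permutation test. Peaks are not replicates, so intervals on shares cover counting error only. Motif shares per replicate were read at the same peaks, so their SD and tests cover shifts of the summit and not independent sequence. Scripts were tested on simulated data. Python 3.11.15, NumPy 2.4.6, pandas 2.3.3, SciPy 1.17.1 and matplotlib 3.10.9 were used.

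The members, gene lists and motifs were chosen with earlier results of these data known. The genes named were those of the 15 highest members, up to 4 highest in each list, the 8 highest with a VP box, vri, Pdp1, the genes with the most peaks and peaks at the 1 kb limit. Outdated symbols in the lists were replaced by current ones, and the name patterns for cytochrome P450 and Rab genes were narrowed after matches were seen, since they had taken in genes of other families. Alternatives covered the window, start site annotation, peak strength, replicates, matching and motif window. Lists in dm3 were not used.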

Additional observations from a re-analysis of the deposited data

How the results depend on the processing

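Of 95 values recomputed over 8 results, 85 kept their direction (counts within 1.5 times), 8 moved and 2 reversed. The median distance to the start site followed the window, at 130 bp with 500 bp and 458.5 bp with 2 kb, and the VP box share was 1.09% within 25 bp of the summit. With a 500 bp window 61.4% of single-gene summits lay upstream, and the difference to shared promoters reversed to −0.718 percentage points. This share is read from the offset whose size the rule used, so no conclusion is drawn from it. In the stronger 50% of the peaks the signal difference to shared promoters reversed to 0.0534, the median relative signal was 1.63, and 1704 peaks at 1284 genes were left, since fewer peaks enter. The median relative signal was 1.02 with a 2 kb window and 1.01 with the 5′-most start site of each gene. It was 1.196 to 1.21 when each replicate was left out in turn, and the cause was not tested. This kept 2569 to 2664 peaks that passed in both others, fewer than the 3219 to 3267 members with any entry in both. Over the same leave-outs the signal difference to shared promoters ran from −0.111 to −0.0584 and that to peaks beyond 1 kb from 0.0580 to 0.0796, while with the 5′-most start site the second was 0.0449. RefSeq start sites, a nearly identical set, gave identical values. Taking the highest overlapping entry, or 1 summit per interval, were alternatives chosen after seeing the data. No paired analysis was possible because all 3 replicates belong to 1 group, so no samples could be paired between groups; kinds of peak were compared within each replicate. With 3 replicates no exact permutation test could pass 0.05, read depth is unknown and no list of control peaks was analysed here.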
